A study of Mus musculus with 16 samples.

Results

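Condensin was followed through its 8 genes in injured and uninjured flexor tendon of C57 and MRL mice. The 8 genes are Smc2 and Smc4, which both forms of the complex share, Ncapd2, Ncapg and Ncaph of condensin I, and Ncapd3, Ncapg2 and Ncaph2 of condensin II. They were taken by name as the known subunits of the complex, and all 8 were found among 49568 gene symbols in the table of counts. RNA-seq had been performed on young adult males, and each of 4 groups held 4 libraries. The groups were uninjured C57 (C57BL/6J), injured C57 at 7 days post-injury (dpi), uninjured MRL (MRL/MpJ) and injured MRL at 7 dpi. Injury was a partial cut of the deep digital flexor tendon in a hind paw digit, and the labels name no transgene and no other treatment in either strain. C57 is a common inbred laboratory strain, and MRL is an inbred strain known for healing several tissues with little scar. Libraries are numbered 1 to 4 within a group. Uninjured C57 replicate 4 and uninjured MRL replicate 4 are the libraries whose labels read C57_uninj_6 and MRL_uninj_6, and results are also given without them because both went against their strain labels, as described below.

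Condensin is an ATP-driven ring that extrudes loops of chromatin and so compacts and stiffens chromosomes for mitosis. SMC2 and SMC4 are its long coiled-coil ATPases, a kleisin subunit (NCAPH or NCAPH2) closes the ring, and a pair of HEAT-repeat subunits (NCAPD2 with NCAPG, or NCAPD3 with NCAPG2) binds the kleisin. Condensin II stays in the nucleus throughout the cell cycle, while condensin I reaches the chromosomes after the nuclear envelope breaks down. Uninjured adult tendon holds few dividing cells, and cells in and around a cut tendon divide during repair.

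Libraries held between 12552424 and 23741648 counts on genes, with the 4 injured MRL libraries the deepest (18524170 to 23741648). A count of 3, taken as the floor of detection, corresponded to between 0.126 and 0.241 CPM, the counts of a gene scaled to a fixed library size. Tenocyte markers were present in every library, with 9 or 10 of 10 genes detected and between 3.34% and 10.8% of all counts. Uninjured C57 replicate 4 stood apart, since 12 keratinocyte genes took 9.41% of its counts and at most 0.0802% of the counts of any other library. The libraries labelled C57_uninj_6 and MRL_uninj_6 also went against their strain labels. At 97 genes the other 7 C57 and the other 7 MRL libraries were separated by a gap of over 2 log2 units. The library labelled MRL_uninj_6 was nearer to the C57 mean at all 97 of these genes, and the one labelled C57_uninj_6 was nearer to the MRL mean at 92 of them. The rank correlation of counts of the library labelled MRL_uninj_6 was 0.951 to 0.964 with uninjured C57 replicates 1 to 3 and 0.932 to 0.941 with uninjured MRL replicates 1 to 3. That of the library labelled C57_uninj_6 was 0.799 to 0.834 and 0.809 to 0.832, ranges that overlap, so this measure placed it with neither strain. Every library was kept in the group its label gives, so uninjured C57 and uninjured MRL below name labelled groups. Values resting on these libraries are to be read with those without them. In injured C57 replicate 1, 12 skeletal muscle genes took 7.51% of the counts. Each library came from a single tendon. The labels do not name the animals, and the methods give 4 animals for each group. The labels name no batch, and the methods describe tendons collected without removing the tissue around them, so each library is bulk tissue. In such tissue more cells of a type and more RNA per cell cannot be told apart.

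The stretches of DNA just before the starts of 5 subunit genes are shown because 4 of these genes (Smc2, Ncapd2, Ncapg and Ncaph) had the largest changes described below and the group means of Ncaph2 stayed between 95.6 and 115 CPM. The sequences are those of RefSeq on GRCm38.p6, read 5′ to 3′ on the strand of the gene and ended before the first base that either RefSeq or GENCODE gives as transcribed. Capitals mark letters of 2 motifs known from promoters of cell cycle genes, the CCAAT box (CCAAT, or ATTGG on the opposite strand) and the cell cycle genes homology region or CHR (TTTGAA or TTTAAA, with TTCAAA as the opposite strand of the first).
Smc2, chr4:52439071-52439220, plus strand: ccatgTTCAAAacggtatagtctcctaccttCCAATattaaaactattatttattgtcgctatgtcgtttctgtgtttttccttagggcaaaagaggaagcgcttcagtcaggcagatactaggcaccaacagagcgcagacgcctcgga
Ncapd2, chr6:125191702-125191836, minus strand: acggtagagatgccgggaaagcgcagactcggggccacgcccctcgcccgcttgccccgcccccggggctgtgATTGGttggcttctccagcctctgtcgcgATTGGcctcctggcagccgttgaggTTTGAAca
Ncapg, chr5:45669769-45669918, plus strand: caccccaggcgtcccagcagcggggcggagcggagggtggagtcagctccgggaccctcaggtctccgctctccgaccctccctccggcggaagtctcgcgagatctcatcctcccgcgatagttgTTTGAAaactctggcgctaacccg
Ncaph, chr2:127133955-127134104, minus strand: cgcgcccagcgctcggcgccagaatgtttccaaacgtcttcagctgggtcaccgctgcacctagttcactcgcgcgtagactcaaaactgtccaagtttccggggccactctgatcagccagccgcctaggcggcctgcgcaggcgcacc
Ncaph2, chr15:89355569-89355718, plus strand: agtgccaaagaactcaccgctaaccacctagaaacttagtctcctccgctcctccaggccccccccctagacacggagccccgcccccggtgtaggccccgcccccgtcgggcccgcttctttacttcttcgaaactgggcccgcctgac

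Both strands of the 250 bases before each RefSeq start were searched for these motifs and for 4 spellings of the E2F site (TTTCCCGC, TTTGGCGC, TTTGCCGC and TTTCGCGC). RefSeq promoters were found for 7 of the 8 subunits, Smc4 having no entry in the table. CHR letters were found for 5 of these 7 genes, namely Smc2, Ncapd2, Ncapg, Ncapg2 and the second of 2 starts of Ncapd3, and in 25.2% of 32851 mouse promoters. In Ncapg the CHR letters lay at positions -30 to -25 and in Ncapg2 at -18 to -13, counted back from -1, the base before the start. Those of Ncapg2 lay past the first base of the GENCODE gene. CCAAT letters were found in Smc2, Ncapd2 and Ncapg, and in 33.8% of all promoters. E2F letters were found in Ncapd2 (TTTGGCGC at -8 to -1, past the first base of the GENCODE gene) and in Ncapg2 (TTTCCCGC at -249 to -242), and in 1.86% of all promoters. None of the listed letters was in the windows of Ncaph, Ncaph2 or the first start of Ncapd3. The second start of Ncapd3 lies inside the gene. These matches describe letters only.

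The 8 genes lie on 8 chromosomes of GRCm38, and by GENCODE M21 each is protein coding. Ncaph2 (chr15:89355719-89372826, plus strand) overlaps Sco2 over 1190 of its 4198 exon bases and Tymp over 896, both on the opposite strand. Ncapg (chr5:45669919-45700546, plus strand) shares 944 of its 7066 exon bases with Lcorl on the opposite strand. Whether the counting used strand is not stated, so reads from these shared bases cannot be assigned to 1 gene. Exons of Ncapd2 (chr6:125168007-125191701, minus strand) hold 237 bases of the small RNA gene Scarna10, and the miRNA genes Mir15b and Mir16-2 lie in introns of Smc4 (chr3:69004738-69034623, plus strand). Smc2 (chr4:52439243-52488260, plus strand) has no overlap in its exons. Ncaph (chr2:127103809-127133954, minus strand), Ncapd3 (chr9:27030175-27095315, plus strand) and Ncapg2 (chr12:116405402-116463731, plus strand) overlap no other annotated gene.

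The subunits of 1 complex differed widely in level. Per kilobase of exon, the kleisin of condensin II, Ncaph2, had the highest level in every group, from 22.8 CPM per kb in uninjured MRL to 27.5 CPM per kb in uninjured C57. Its counts may include or lack reads from the exon bases shared with Sco2 and Tymp, as described above. The kleisin of condensin I, Ncaph, had 0.309 ± 0.259 CPM per kb in uninjured C57 and 0.191 ± 0.277 CPM per kb in uninjured MRL (SD, n = 4). Smc4 and Smc2 followed Ncaph2 in all 4 groups, with 7.68 ± 3.65 and 3.77 ± 2.95 CPM per kb in uninjured C57 and 16.8 ± 6.54 and 15.8 ± 7.01 CPM per kb in injured MRL. Without the library labelled C57_uninj_6 the means of Smc4 and Smc2 in uninjured C57 were 5.92 ± 1.16 and 2.32 ± 0.642 CPM per kb (SD, n = 3), and Ncapg had 0.0478 CPM per kb in place of 0.266. The ranges of Smc4 and Smc2 overlapped in every group but uninjured MRL, and without that library they did not overlap in uninjured C57 either. In uninjured tendon Ncaph and Ncapg took the last places of the 8, with overlapping ranges. At 7 dpi Ncaph stood in the fourth place in both strains, at 3.10 ± 2.60 CPM per kb in C57 and 6.07 ± 2.54 CPM per kb in MRL. The last place in injured MRL was that of Ncapd3, at 1.76 ± 0.763 CPM per kb. Its range overlapped those of Ncapg2 and Ncapg, its neighbours in the order. Levels of different genes were compared without a test.

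**Figure D1:**
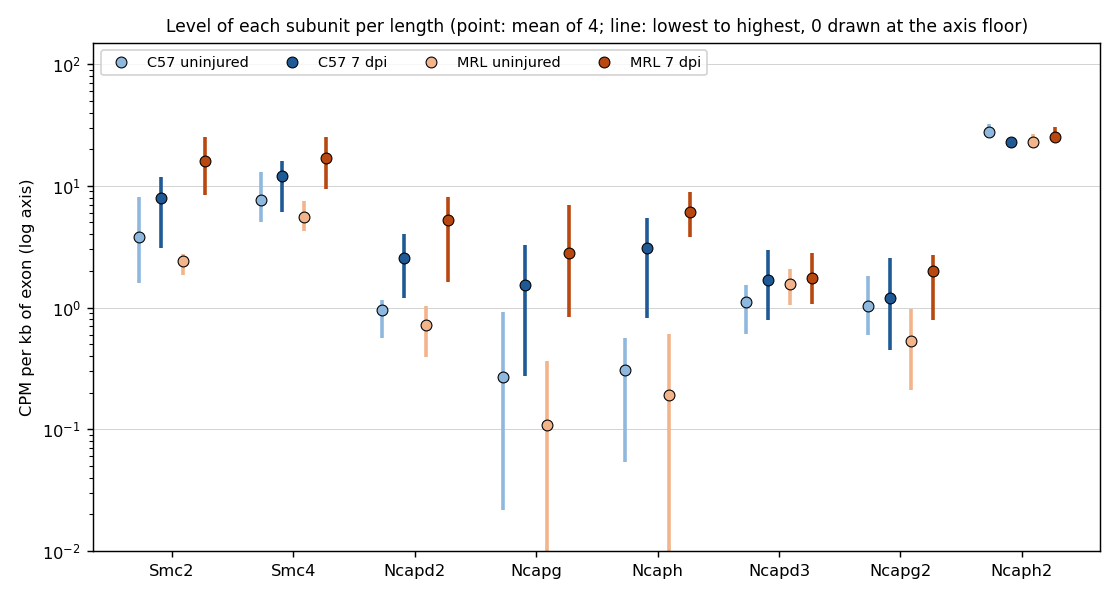
Level of each subunit per length, in CPM per kb of exon on a log axis, by group; points are means of 4 libraries, lines run from the lowest to the highest library, and values of 0 lie at the axis floor. Ncaph2 stays between 22.8 and 27.5 CPM per kb on average, whereas the means of Ncaph and Ncapg lie under 0.4 CPM per kb in uninjured tendon of both strains.

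The response of MRL tendon to injury was examined first. Of the 8 subunits, 6 rose at 7 dpi and none fell: both shared SMC genes, all 3 condensin I subunits, and Ncapg2 of condensin II. A gene was called as changed at a Benjamini-Hochberg adjusted p under 0.05 in edgeR's quasi-likelihood test over all genes with an absolute log2 fold change over 1. By the same criteria 5.25% of 14274 genes tested rose and 2.15% fell. The injured libraries lay wholly above the uninjured ones for 5 of the 8 subunits, which was so for 13.5% of all genes. The median log2 fold change of the 8 subunits was 2.32, against -0.03 over all genes tested.

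Smc2, an ATPase of both complexes, had 15.04, 10.1, 13.7 and 14.4 CPM in uninjured MRL replicates 1 to 4 and 80.5, 82.6, 45.7 and 138 CPM in injured MRL replicates 1 to 4. Every injured library lay far above the uninjured ones, which were close to each other. Smc2 was 6.57-fold higher at 7 dpi (log2 fold change 2.72, SE 0.32, adjusted p = 0.00133 by edgeR). Smc4, its partner, had 22.0, 28.8, 25.8 and 39.5 CPM in uninjured and 94.2, 76.1, 49.4 and 131 CPM in injured MRL. The groups did not overlap, and the change was smaller than that of Smc2, at 3.04-fold (log2 fold change 1.60, SE 0.30, adjusted p = 0.00868 by edgeR). Injured replicate 3 was the lowest and injured replicate 4 the highest of its group for both genes.

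Among the condensin I subunits, Ncapd2, the HEAT-repeat scaffold, had 4.18, 6.42, 2.45 and 5.06 CPM in uninjured and 34.2, 36.5, 10.2 and 50.5 CPM in injured MRL. Its groups did not overlap, and it was 7.31-fold higher (log2 fold change 2.87, SE 0.48, adjusted p = 0.00566 by edgeR). Ncaph, the kleisin, had 0.331, 2.60, 0.358 and 0 CPM in uninjured and 32.1, 17.7, 16.2 and 38.5 CPM in injured MRL. The uninjured values stood for 5, 36, 6 and 0 counts, so that 1 library was at 0 and uninjured replicate 2 held most of the signal. The log2 fold change of Ncaph was 4.99 (SE 0.89, adjusted p = 0.00745 by edgeR) and 6.73 without uninjured replicate 2. Ncapg, the other HEAT-repeat subunit, had 0, 0.0721, 2.57 and 0.402 CPM in uninjured MRL, from 0, 1, 43 and 5 counts, and 10.9, 12.2, 5.91 and 49.5 CPM in injured MRL. All 4 injured libraries were above all uninjured ones, but both groups were wide. The log2 fold change of Ncapg was 4.65 (SE 1.16, adjusted p = 0.0296 by edgeR), and it was 6.96 without uninjured replicate 3 and 3.64 without injured replicate 4.

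The condensin II subunits split. Ncapg2 had 6.56, 2.81, 9.61 and 2.09 CPM in uninjured and 26.6, 19.1, 7.89 and 25.8 CPM in injured MRL. Injured replicate 3 lay below uninjured replicate 3, and the rise, 3.77-fold, passed the threshold narrowly (log2 fold change 1.92, SE 0.54, adjusted p = 0.0459 by edgeR). Ncapd3 had 8.35, 8.51, 16.4 and 15.7 CPM in uninjured and 13.8, 10.97, 8.51 and 22.3 CPM in injured MRL. Its groups overlapped through most of their range, with a log2 fold change of 0.19 (SE 0.38, approximate interval -0.55 to 0.94, adjusted p = 0.779 by edgeR). Approximate intervals here rest on a normal multiple of the SE and are narrower than 95% intervals of the test. Ncaph2, the abundant kleisin, had 112, 93.7, 87.0 and 89.4 CPM in uninjured and 127, 102, 101 and 95.5 CPM in injured MRL. Its log2 fold change was 0.16 (SE 0.15, approximate interval -0.14 to 0.45, adjusted p = 0.536 by edgeR). That interval lies well under the rise seen for any of the 6 subunits called.

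Smc2, Smc4, Ncapd2 and Ncaph were called whichever of the 8 libraries was left out. Ncapg lost its call in 5 of 8 such fits, those without uninjured replicate 1, 2 or 4 or injured replicate 2 or 4 (adjusted p from 0.0554 to 0.0840). Ncapg2 lost its call in 6 of 8, those without uninjured or injured replicate 1, 2 or 4 (adjusted p from 0.0863 to 0.112). Ncapg also lost its call without a filter on low counts (adjusted p = 0.119 by edgeR) and in 1 fit of all libraries (adjusted p = 0.0608 by edgeR), and Ncapg2 in the latter (adjusted p = 0.0806 by edgeR). Without the library labelled MRL_uninj_6, 4 subunits rose, the log2 fold changes of Ncapg and Ncapg2 being 4.45 (adjusted p = 0.0721) and 1.66 (adjusted p = 0.0863) by edgeR, and 4.68% of all genes rose. The share of counts on 10 macrophage genes moved with injury, from between 0.0934% and 0.156% in uninjured to between 0.338% and 0.655% in injured MRL, with all 10 genes detected in each library. The share of 8 neutrophil genes was higher in every injured MRL library, from between 6.29e-06% and 0.000271% to between 0.000382% and 0.00274%. At least 5 of these 8 genes had 3 or fewer counts in each MRL library. The share of 8 hair follicle genes was lower, from between 0.00702% and 0.0112% to between 0.00333% and 0.00674%. It rested on few genes, with 2 to 4 of the 8 detected in any MRL library. The part of these lists in the change of the subunits was not tested.

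**Figure D2:**
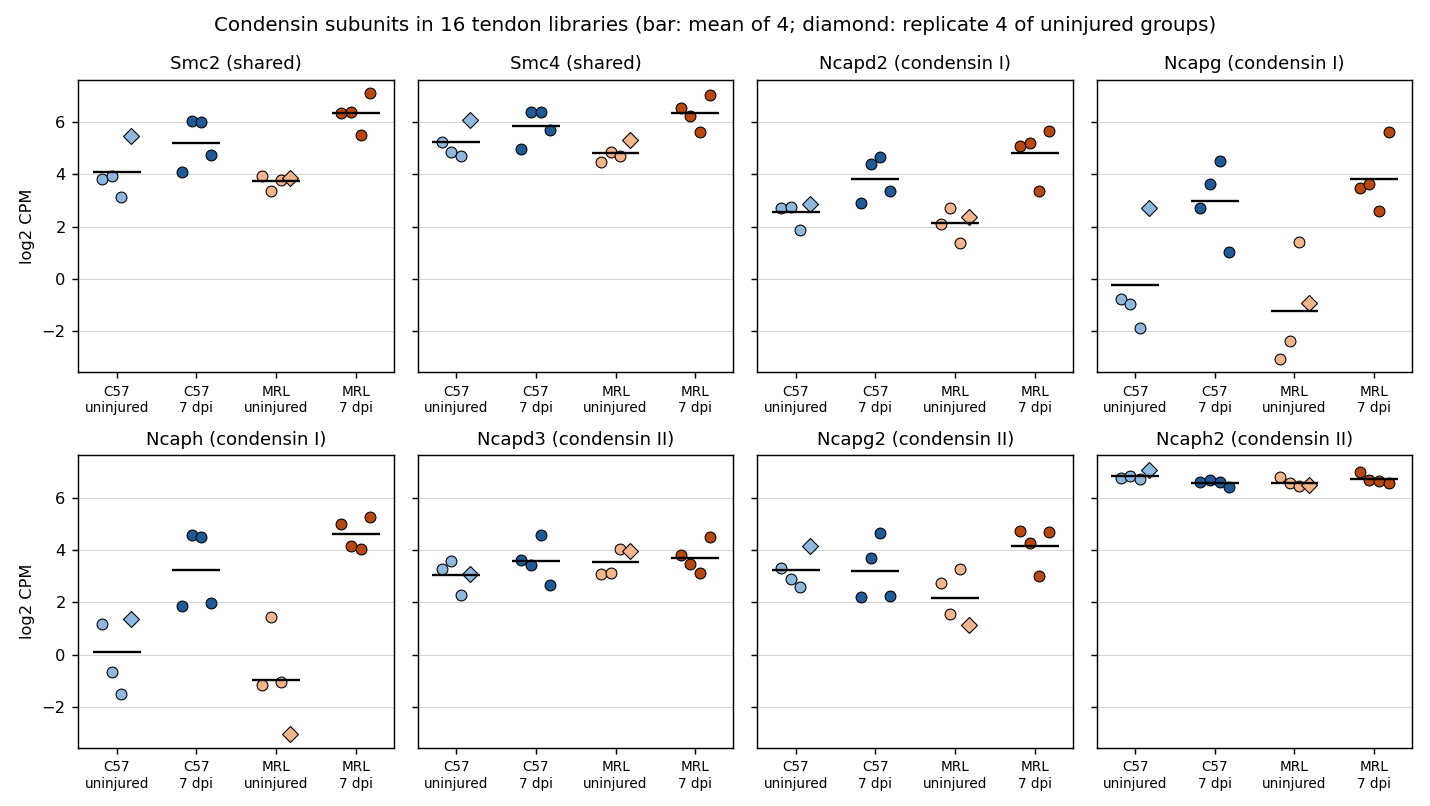
Level of the 8 subunits in each library, as log2 CPM with a prior count of 2, by group; each point is 1 library, bars are means of 4, and diamonds are replicate 4 of the uninjured groups. Points of injured MRL lie above those of uninjured MRL without overlap for Smc2, Smc4, Ncapd2, Ncapg and Ncaph, whereas those of Ncaph2 lie close together, between 86.3 and 135 CPM in all 16 libraries.

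In C57 tendon the same comparison called none of the 8 subunits, where 1.07% of 14424 genes were called and 0.908% rose. Unadjusted p-values were under 0.05 for 2 subunits, Ncapd2 and Ncaph, and under 0.05 for 15.3% of all genes. DESeq2 called these 2 subunits as higher, as it did 4.17% of genes. Injured libraries lay wholly above uninjured ones for the same 2 subunits, as for 7.42% of all genes, and wholly below for 1, Ncaph2, as for 4.17% of all genes. The median log2 fold change of the 8 subunits was 0.78, against -0.05 over all genes tested.

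Ncaph had 2.15, 0.518, 0.231 and 2.43 CPM in uninjured C57 replicates 1 to 4 and 3.54, 23.5, 22.6 and 3.83 CPM in injured C57 replicates 1 to 4. The injured group fell into a pair of high and a pair of low libraries, and even the low pair was above all uninjured ones. Its log2 fold change was 3.24 (SE 0.95, adjusted p = 0.164 by edgeR), with an adjusted p of 0.00430 by DESeq2. Ncapd2 had 6.45, 6.67, 3.55 and 7.21 CPM in uninjured and 7.44, 21.1, 25.0 and 10.1 CPM in injured C57. The gap between the groups was small, since the highest uninjured and the lowest injured library were 7.21 and 7.44 CPM. Its log2 fold change was 1.35 (SE 0.45, adjusted p = 0.213 by edgeR), with an adjusted p of 0.0474 by DESeq2. Ncapg had 0.470, 0.389, 0.154 and 6.51 CPM in uninjured and 6.36, 12.3, 22.9 and 1.92 CPM in injured C57. Uninjured replicate 4 alone made the groups overlap, and the log2 fold change was 2.44 (SE 1.21, adjusted p = 0.377 by edgeR).

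For the SMC pair, too, uninjured C57 replicate 4 was the exception in its group. Smc2 had 14.2, 15.3, 8.72 and 44.5 CPM in uninjured and 16.9, 65.2, 64.0 and 26.8 CPM in injured C57, with a log2 fold change of 0.99 (SE 0.59, adjusted p = 0.463 by edgeR). Smc4 had 37.7, 28.6, 26.2 and 67.5 CPM in uninjured and 31.6, 83.0, 83.6 and 51.5 CPM in injured C57, with a log2 fold change of 0.58 (SE 0.39, adjusted p = 0.529 by edgeR). Both genes were highest in injured replicates 2 and 3 and lowest, among injured libraries, in replicate 1.

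Condensin II in C57 gave no call in either direction. Ncapg2 had 9.74, 7.32, 5.86 and 17.9 CPM in uninjured and 4.44, 13.0, 25.3 and 4.61 CPM in injured C57, so that the injured group held both the highest and the lowest values. Ncapd3 had 9.54, 12.0, 4.78 and 8.43 CPM in uninjured and 12.3, 10.6, 23.6 and 6.17 CPM in injured C57, with injured replicates 1 and 3 above all uninjured libraries, the other 2 within their range, and a log2 fold change of 0.56 (SE 0.46). Ncaph2 had 109, 113, 105 and 135 CPM in uninjured and 97.6, 104, 96.2 and 86.3 CPM in injured C57. Its injured libraries were all below the uninjured ones, by a log2 fold change of -0.31 (SE 0.16, adjusted p = 0.395 by edgeR).

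Leaving out the library labelled C57_uninj_6 widened the injury difference of 6 of the 8 subunits in C57. Ncapg was then called (log2 fold change 4.92, SE 0.92, adjusted p = 0.0175 by edgeR), as were 3.5% of all genes in the higher direction. Ncaph reached 3.72 (adjusted p = 0.0694), Smc2 1.72 (adjusted p = 0.0733), Ncapd2 1.47 (adjusted p = 0.110) and Smc4 0.97 (adjusted p = 0.119) in the log2 fold change of the same test. Unadjusted p-values were under 0.05 for 5 subunits, against 21% of all genes. Injured libraries then lay wholly above uninjured ones for 4 subunits, Smc2, Ncapd2, Ncapg and Ncaph, as for 11.6% of all genes. Ncaph2 kept a negative log2 fold change, -0.21 (adjusted p = 0.416). The library left out is the one with 9.41% of counts on keratinocyte genes, all 12 of which were detected in it, and their part in its subunit levels was not tested. It is also the library nearer to MRL than to C57 at most of the genes that separate the strains. In C57, as in MRL, the share of counts on 10 macrophage genes moved with injury, from between 0.0681% and 0.183% in uninjured libraries, with 9 or 10 genes detected, to between 0.471% and 0.935% in injured ones, with all 10 detected. The share of 6 endothelial genes was also higher in every injured C57 library, from between 0.00168% and 0.00822% to between 0.0109% and 0.0156%, with 5 or 6 and then all 6 genes detected. The share of 8 lymphocyte genes was higher in every injured C57 library too, from between 0% and 7.49e-05% to between 0.000132% and 0.000483%. These shares stood near the floor, with 0 to 3 genes detected in uninjured and 2 to 5 in injured libraries. At least 5 of the 8 genes had 3 or fewer counts in each library. The share of 8 hair follicle genes was lower, from between 0.00713% and 0.0175% to between 0.00123% and 0.00225%. It rested on few genes, with 2 to 4 of the 8 detected in any C57 library. Without the library labelled C57_uninj_6 the share of 6 erythroid precursor genes was also higher in every injured C57 library, between 0.00586% and 0.0413% against between 0.00253% and 0.00502%, whereas with it the groups overlapped. The part of these lists in the subunit values was not tested.

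**Figure D3:**
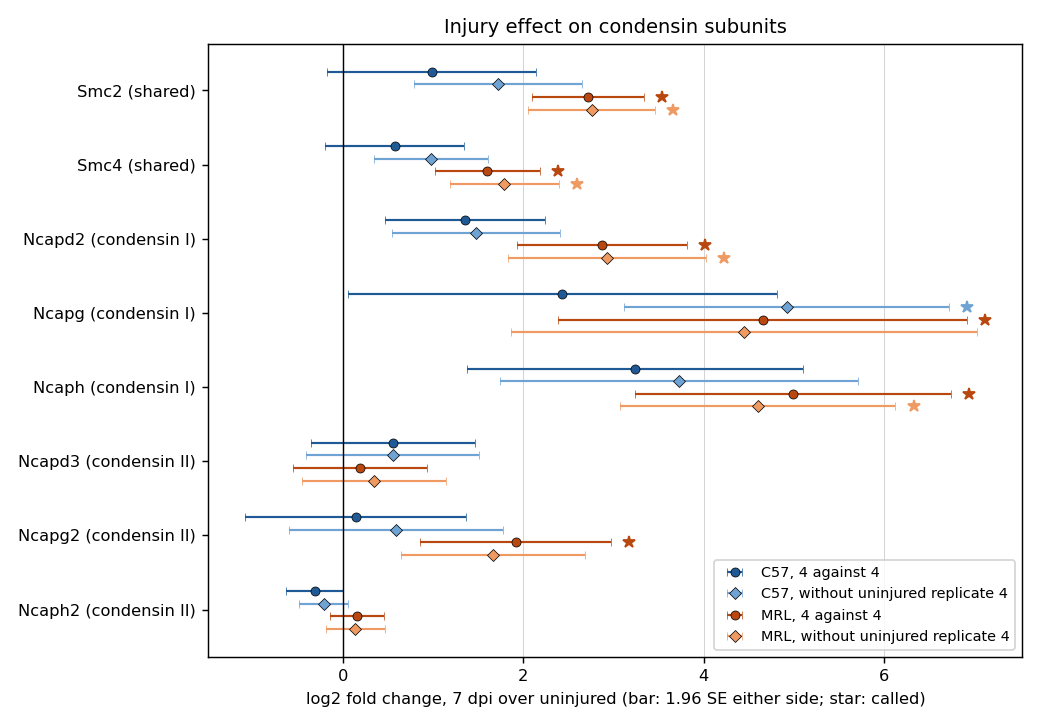
Log2 fold change of each subunit at 7 dpi over uninjured tendon in C57 and MRL. Circles are fits with all libraries and diamonds those without replicate 4 of the uninjured group. Bars are approximate intervals from a normal multiple of the SE, narrower than 95% intervals of the test, and stars mark subunits called. The bar of Ncapg in C57 with all libraries leaves out 0, although its unadjusted p was 0.0748 by edgeR. Among the condensin I subunits the values with all libraries lie between 1.35 and 3.24 in C57 and between 2.87 and 4.99 in MRL, and Ncaph2 lies within 0.31 of 0 throughout.

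Whether the strains differed in their response was tested as a strain-by-injury term in 1 fit of the 16 libraries. None of the 8 subunits was called by edgeR, as was 0% of 15947 genes, and DESeq2 called 198 genes but no subunit. At an unadjusted p under 0.05, 2 subunits had a larger rise in MRL, as did 6.92% of all genes. These were Smc2 (log2 difference of fold changes 1.66, SE 0.70, adjusted p = 0.375) and Ncapd2 (1.45, SE 0.67, adjusted p = 0.405). The interaction was above 0 for 7 subunits, as for 48.3% of all genes, and below 0 for Ncapd3 (-0.42, SE 0.61). Without the libraries labelled C57_uninj_6 and MRL_uninj_6 no subunit had an unadjusted p under 0.05, where 10.6% of all genes did. The interaction of Smc2 was then 0.98 (adjusted p = 0.599 by edgeR), that of Ncapd2 1.40 (adjusted p = 0.529 by edgeR), and that of Ncapg turned from 2.16 to -0.53. The larger number of subunits called in MRL than in C57 was thus not shown to be a difference between the strains.

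Direct comparisons of the strains gave no subunit call either. In uninjured tendon 6 subunits were tested, Ncapg and Ncaph being too low, and none was called, as was 0% of 14055 genes by edgeR. With all libraries there were 0 subunits and 7.87% of all genes at an unadjusted p under 0.05, and DESeq2 called 104 genes but no subunit. Without the libraries labelled C57_uninj_6 and MRL_uninj_6, 3.48% of 14274 genes were called and still 0 of 6 subunits. Smc2, for example, averaged 13.3 ± 2.21 CPM in uninjured MRL and 20.7 ± 16.1 CPM in uninjured C57 (SD, n = 4), with a log2 fold change of MRL over C57 of -0.69 (SE 0.49) that became 0.014 without the libraries labelled C57_uninj_6 and MRL_uninj_6. Its means were then 12.9 ± 2.55 CPM in uninjured MRL and 12.7 ± 3.52 CPM in uninjured C57 (SD, n = 3). Ncapg2 had the lowest of these values, -0.999 (SE 0.59, approximate interval -2.15 to 0.15), and -0.28 without those libraries. The ranges of both strains overlapped for all 8 subunits. Most genes did the same, with MRL wholly above C57 for 3.14% of all genes and wholly below for 1.91%.

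In injured tendon all 8 subunits had a higher fitted level in MRL than in C57, as had 45.6% of 14626 genes, and none was called, where 3.43% of all genes were. DESeq2 called none of the 8 either, and no unadjusted p was under 0.05, where 21.2% of all genes had such a value. Injured MRL averaged 32.9 ± 16.7 CPM of Ncapd2 against 15.9 ± 8.45 CPM in injured C57, a log2 fold change of 1.02 (SE 0.49, adjusted p = 0.271 by edgeR). Smc2 averaged 86.8 ± 38.4 CPM against 43.2 ± 25.0 CPM, a log2 fold change of 0.98 (SE 0.45, adjusted p = 0.243 by edgeR). For every subunit the ranges of both injured groups overlapped. Most genes did the same, with MRL wholly above C57 for 8.27% of all genes and wholly below for 7.58%. Shares of some marker lists did separate the injured groups. Tenocyte genes took 3.38% to 6.68% of counts in C57 and 6.94% to 10.8% in MRL. Endothelial genes took 0.0109% to 0.0156% and 8.42e-06% to 0.00259%. Lymphocyte shares were lower and hair follicle shares higher in MRL. The part of these lists in the subunit levels was not tested.

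The balance between the forms of the complex was read in each library as the mean log2 CPM of the 3 condensin I subunits minus that of the 3 condensin II subunits. In uninjured MRL this difference was -4.91, -3.15, -4.02 and -4.41 in replicates 1 to 4, and in injured MRL it was -0.65, -0.48, -0.92 and 0.27. In uninjured C57 it was -3.40, -4.06, -4.36 and -2.46, and in injured C57 it was -1.65, -0.41, -0.72 and -1.65. Injured and uninjured libraries did not overlap in either strain, and injured MRL replicate 4 was the only one with a positive difference. CPM here was not scaled by exon length, so the sign of the difference does not compare the levels of both forms. The condensin I mean was 0.81 ± 1.19 and 3.35 ± 1.21 log2 CPM in uninjured and injured C57, and -0.02 ± 0.70 and 4.43 ± 0.90 log2 CPM in MRL (SD, n = 4). Without the libraries labelled C57_uninj_6 and MRL_uninj_6 the uninjured condensin I mean was 0.31 ± 0.77 log2 CPM in C57 and 0.16 ± 0.74 log2 CPM in MRL (SD, n = 3). The condensin II mean was 4.38 ± 0.38 and 4.45 ± 0.65 in uninjured and injured C57, and 4.10 ± 0.38 and 4.87 ± 0.46 in MRL, with 4.25 ± 0.33 and 4.18 ± 0.43 in uninjured C57 and MRL without those libraries. These scores were not tested, and low counts of Ncapg and Ncaph in uninjured tendon make them depend on the prior count of 2.

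**Figure D4:**
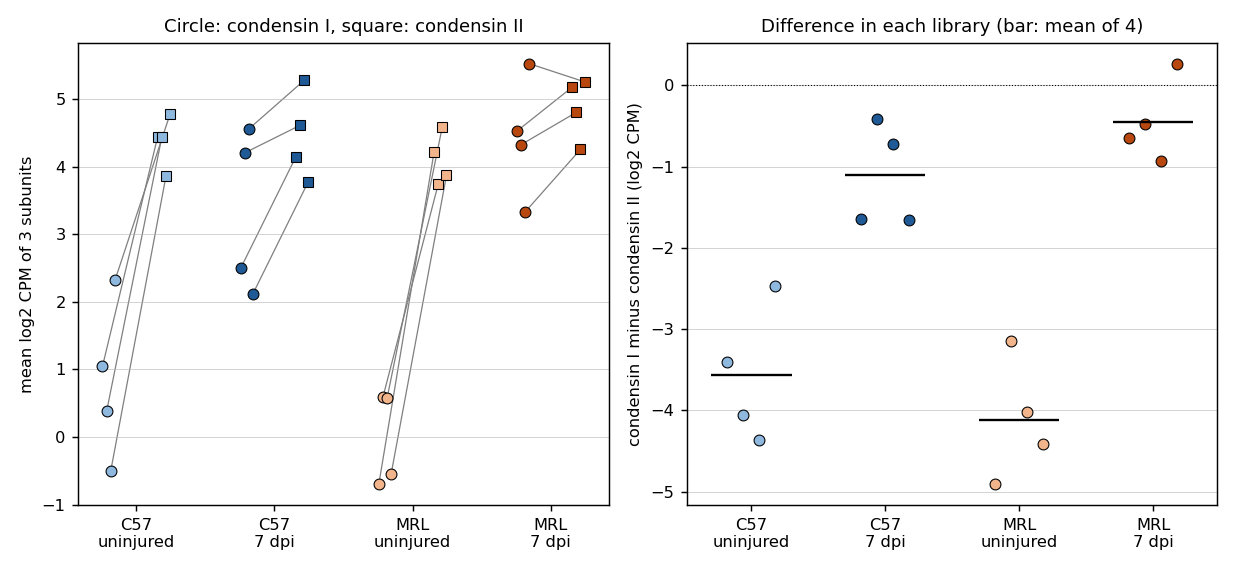
Left, mean log2 CPM of the 3 condensin I subunits (circles) and the 3 condensin II subunits (squares), joined for each library; right, their difference in each library, with bars at the mean of 4. The difference lies between -4.91 and -2.46 in uninjured libraries and between -1.65 and 0.27 in injured ones.

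Libraries of a group tended to be high or low for most subunits at once. In uninjured C57, replicate 4 was the highest for 7 of the 8 subunits and replicate 3 the lowest for all 8. In injured C57, replicates 2 and 3 were among the highest pair for 7 subunits each, whereas replicate 1 was the lowest for 5 and replicate 4 for 3. In injured MRL, replicate 4 was the highest for 6 subunits and replicate 3 the lowest for 7. Uninjured MRL had no such library, each of its 4 being the highest for 1 to 3 subunits. Injured C57 replicate 1, low for 5 subunits, is the library with 7.51% of counts on skeletal muscle genes, whose part in its levels was not tested. Injured C57 replicate 4, the other low library, had 0.00113% of counts on those genes. Injured C57 replicate 2, among the highest pair for 7 subunits, had 0.239%, with all 12 genes detected.

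Genes that work beside condensin were counted by list. Chromosome compaction partners, which include the topoisomerases, mitotic kinases and chromosome coat proteins, had 12 of 15 genes higher in injured MRL, none lower and a median log2 fold change of 4.97, and 0 of 15 called in C57 with a median of 1.22. Without the library labelled MRL_uninj_6 the count in MRL was again 12 of 15, with a median of 4.59. Without the library labelled C57_uninj_6, 7 of these 15 rose in C57 with a median of 3.50. The shares of all genes that rose were 5.25% in MRL, 0.908% in C57 and 3.5% in C57 without that library. The strain-by-injury term called 0 of the 15 by edgeR, with a median of 2.51, and of 0.78 without the libraries labelled C57_uninj_6 and MRL_uninj_6. The largest values in MRL were those of the mitotic kinase genes Cdk1 (7.29, adjusted p = 0.000785) and Aurkb (6.37, adjusted p = 0.00231), and the smallest those of Top2b, the topoisomerase of resting cells (-0.19, adjusted p = 0.510), and Hmgb2 (0.87, adjusted p = 0.0237, under the fold threshold). DNA replication genes had 9 of 15 higher and none lower in MRL with a median of 1.55, led by the ribonucleotide reductase subunit Rrm2 (4.37, adjusted p = 0.00119) and the origin-licensing factor Cdc6 (3.26, adjusted p = 0.0455). Without the library labelled MRL_uninj_6, 8 of the 15 rose, and Cdc6 was not called (3.74, adjusted p = 0.0589 by edgeR). The smallest values of that list were those of the polymerase gene Pola1 (0.45, adjusted p = 0.407) and the helicase gene Mcm7 (0.64, adjusted p = 0.144). In C57 none of these 15 was called, with a median of 0.30, and without the library labelled C57_uninj_6 2 rose, with a median of 0.48. The strain-by-injury term called 0 of the 15 by edgeR, with a median of 1.16, and of 1.03 without the libraries labelled C57_uninj_6 and MRL_uninj_6.

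The other SMC complexes were counted in the same way, beside shares over all genes of 5.25% higher and 2.15% lower in MRL. Of 15 genes of cohesin, its loaders, releasers and guards, 2 rose and none fell in injured MRL, with a median log2 fold change of -0.27, and of -0.14 without the library labelled MRL_uninj_6, where 2 also rose. Those 2 were Esco2, which acetylates cohesin in S phase, and Cdca5, which protects it until anaphase (4.24, adjusted p = 0.0421). Esco2 had 1 count in all 4 uninjured MRL libraries together and between 6.13 and 11.7 CPM in the injured ones, so no fold is given. Without that library Esco2 was called (adjusted p = 0.00351 by edgeR) and Cdca5 was not (3.84, adjusted p = 0.0698 by edgeR). The securin gene Pttg1, whose product holds separase inactive until anaphase, was called in its place (3.19, adjusted p = 0.00917 by edgeR). Pttg1 had 9.21, 4.11, 8.41 and 138 CPM in uninjured MRL replicates 1 to 4 and between 25.3 and 109 CPM in injured MRL. With all libraries its log2 fold change was 0.73 (adjusted p = 0.689 by edgeR), replicate 4, the library labelled MRL_uninj_6, being above every injured one. The lowest values of the list were those of the loader genes Nipbl (-0.65, adjusted p = 0.0188, under the fold threshold) and Mau2 (-0.58, adjusted p = 0.155). The ring subunits Smc1a (0.00, adjusted p = 0.996) and Smc3 (-0.49, adjusted p = 0.0528) were not called. Of the SMC5/6 complex, which serves DNA repair, 0 of 5 genes were called with or without that library, with all libraries from Nsmce4a (-0.33) and Smc5 (-0.31) to Nsmce2 (0.37) and Nsmce1 (0.49). None of the cohesin or SMC5/6 genes was called in C57. No list was tested against another.

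Likeness of pattern was measured as the root mean square difference in centred log2 CPM over the 16 libraries, among 15947 genes. The gene outside the complex nearest to Smc2 was Tacc3, a mitotic spindle gene (0.416), and the nearest to Ncapd2 was the replication gene Gins2 (0.577). Ncapg2 had the replication gene Tyms nearest (0.618), Ncapg the chromosomal kinesin gene Kif4 (0.759), and Ncaph the mitotic kinase gene Plk1 (0.764). Smc4 had the histone variant gene H2afz nearest (0.263), Ncapd3 the cell cycle inhibitor gene Rb1 (0.378), and Ncaph2 the kinase gene Wnk1 (0.140). Genes that vary little have small differences from many others, so these values are not comparable between subunits. Smc2, Ncapd2 and Ncapg2 each had 2 other subunits among their 50 nearest genes, and the other 5 subunits had 0. Smc2 was the nearest of all genes to Ncapd2 (0.498), while Ncaph stood at place 128 among the genes nearest to Ncapg, and Ncapg at place 122 among those nearest to Ncaph.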

How the data were processed

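Flexor tendon RNA of 4 groups of 4 libraries was sequenced. According to the labels' processing notes, the authors used Trimmomatic 0.36, STAR 2.5.2b, featureCounts of Subread 1.5.0p3 and GRCm38.p5, and they deposited raw counts per gene symbol, without normalization. The gene annotation and the strand setting are not given in the sources used here. The labels name a TruSeq kit and the methods a SMARTer pre-amplification, and neither names molecular identifiers, so floors cover counting error only.

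Here counts were tested with edgeR 4.0.16 in R 4.3.3 (TMM, filterByExpr, robust quasi-likelihood fit), each comparison on its 8 libraries and the interaction on all 16, with Benjamini-Hochberg adjustment over all genes tested. Genes were called at an adjusted p under 0.05 with an absolute log2 fold change above 1, in the interaction at the former only. CPM used TMM-adjusted library sizes, log2 CPM a prior count of 2, and levels per kb the exon union of GENCODE M21. Approximate intervals used a normal multiple of the SE and are narrower than 95% intervals of the quasi-likelihood test. The code was tested on simulated data.

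The 8 subunits and the lists were chosen with earlier results of these data known. All 8 subunits are given, and of each other list the 2 smallest and 2 largest log2 fold changes in MRL. Smc1a, Smc3 and Pttg1 were named after their values were seen. For each subunit the nearest gene outside the complex is named. Groups came from the labels, injured replicates being numbered in the order of the sample list. Alternatives were DESeq2 1.42.0, other size factors, no filter, no fold criterion, 1 fit of all libraries, each library left out, both libraries named above left out, and a replicate block. The strain check of those 2 libraries was chosen after the data were seen. Marker lists of hair follicle, neutrophil, lymphocyte, endothelium and erythroid precursors each took at most 0.0413% of the counts of any library, and those whose shares moved with injury without overlap are given with the results.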

Additional observations from a re-analysis of the deposited data

Results flagged for a closer look

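Dixon's test was applied to each subunit in each group of 4 libraries, 32 in all, and picked out 4 values. Its rate of about 1 in 20 by chance holds for normally distributed values. It may not hold for CPM from low counts, so no excess is read from the 4. Ncapg was at 6.51 CPM in uninjured C57 replicate 4 and between 0.154 and 0.470 CPM in the other 3 libraries of that group. It was at 2.57 CPM in uninjured MRL replicate 3, against 0 to 0.402 CPM in the others. In injured MRL it was at 49.5 CPM in replicate 4, against 5.91 to 12.2 CPM in the others. Ncaph was at 2.60 CPM in uninjured MRL replicate 2, against 0 to 0.358 CPM in the others. In each case the library far from the rest was the highest, and all 4 values belong to the condensin I subunits with the lowest uninjured levels. Within uninjured MRL the libraries high for Ncapg and for Ncaph were different ones.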

How the results depend on the processing

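The number of genes called with DESeq2 was 911 in C57 and 1818 in MRL after injury, 198 for the interaction, 104 between uninjured and 1488 between injured strains, and 2 subunits were called in C57. In 1 fit of all libraries it was 367 in C57 and 227 between injured strains, and without a filter it was 1 between uninjured strains. With C57_uninj_6 and MRL_uninj_6 left out it was 497 between uninjured strains. At an unadjusted p it was 1939 for the interaction, with 2 subunits. Leaving out each library gave 10 to 750 genes and 0 to 1 subunits in C57, 689 to 1260 genes and 4 to 6 subunits in MRL, 0 to 3 genes between uninjured and 231 to 481 between injured strains.

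Values of subunits that were not called turned sign in some fits, and the cause was not tested. In C57 the log2 fold change of Ncapg2 was -0.05 without uninjured and -0.50 without injured replicate 3 (up to 0.59 in other fits that left out a library), and in MRL that of Ncapd3 was -0.13 without injured replicate 4 (up to 0.37). The interaction of Ncapg was -0.33 without uninjured C57 replicate 4 (up to 4.45) and -0.53 without both libraries named above, and that of Ncapd3 was 0.015 without injured C57 replicate 3 (down to -0.74). Between uninjured strains Smc2 was 0.056 and 0.014 in the same 2 settings as Ncapg (down to -0.94). Between injured strains Ncapd3 was -0.05, -0.19 and -0.23 without injured C57 replicate 2 or 4 or injured MRL replicate 4 (up to 0.46), and Ncapg -0.14 without the last (up to 1.46).

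Only uninjured labels carry replicate numbers, and same-numbered libraries of the strains did not deviate together (correlations -0.26, 0.02, -0.10 and -0.23). With the number as a block no subunit was called between uninjured strains, and the log2 fold change of Ncapg2 was -1.08 (adjusted p = 0.858). Among uninjured libraries 3 of 8 had 3 or fewer counts of Ncapg and 2 of 8 of Ncaph, so these were at or under the floor.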
